A study of Mus musculus with 8 samples.

Results

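The genes described here are 46 that encode subunits of glutamate, GABA-A and glycine receptors, out of 23481 genes in the deposited count table. They were picked by symbol alone, with no measured value: 4 AMPA (Gria), 7 NMDA (Grin), 5 kainate (Grik), 2 delta (Grid), 8 metabotropic glutamate (Grm), 15 GABA-A (Gabra, Gabrb, Gabrg, Gabrd, Gabre, Gabrq) and 5 glycine (Glra, Glrb) receptor genes. Symbols that match the same letters but encode no subunit, such as Grin1os, were left out. The GABA-A rho and pi subunit genes (Gabrr1, Gabrr2, Gabrr3 and Gabrp) fall outside these letters and were counted with other receptor genes. The mutant samples are labelled PRC2 mutant and the others wt, and both genotypes belong to the strain DatCreEed, whose name joins a dopamine transporter (DAT, gene Slc6a3) Cre driver to Eed, a core subunit of Polycomb repressive complex 2 (PRC2). PRC2 marks silenced genes by methylating histone H3 on lysine 27, and the comparison asks what dopamine neurons transcribe when that complex is not functional. Sorted nuclei of adult midbrain came from mice aged 8 months, pooled as 2 females and 1 male per genotype into 1 library each, which was sequenced on 4 lanes that count as 4 samples, 8 in all. With 1 library per genotype no test of genotype is possible, and genotype cannot be told apart from batch or from the mice pooled. The labels do not say which exons of Eed the mutation removes. Eed tags were 1.93-fold higher in mutant dopamine nuclei (1.79 to 2.09; 41.3 CPM in the mutant and 21.4 CPM in the wt library), a level that does not check the label because the exons behind the tags are unknown.

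Fast excitation in the brain runs through glutamate-gated channels of the AMPA, NMDA and kainate classes, each built from several subunits, while metabotropic glutamate receptors act through G proteins. Fast inhibition runs through GABA-A and glycine receptors, which are chloride channels of related build. In midbrain dopamine neurons, NMDA and AMPA input drives burst firing and plasticity, and GABA-A input from striatum, pallidum and local cells restrains firing.

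Nuclei were split by Th, Slc6a3, Slc18a2 and Ddc, which serve dopamine synthesis, storage and reuptake. Those with at least 5 UMIs (unique molecular identifiers, 1 per captured molecule) of the 4 genes per 10000 are called dopamine nuclei, 2875 in the mutant and 1320 in the wt library. The remaining 1093 mutant and 452 wt nuclei are called other nuclei. Of all 14 markers of dopamine neurons outside these 4 genes, 14 were higher in dopamine nuclei than in other neuron-like nuclei in the mutant library and 14 in the wt library. Their summed level in dopamine nuclei was 1854 CPM (CPM being a gene's UMIs per 1e6 UMIs of its class) in the mutant and 2906 CPM in the wt library. Median depth was 19023 UMIs in mutant and 24257.5 UMIs in wt dopamine nuclei, and 14650 UMIs in mutant and 12471.5 UMIs in wt other nuclei. The summed dopamine nuclei held 68742978 mutant and 39383984 wt UMIs, so that 1 UMI was 0.0145 and 0.0254 CPM. Between 4 and 5 UMIs per 10000, just outside the rule, lay 107 mutant and 41 wt nuclei, and between 5 and 6, just inside it, 116 mutant and 37 wt nuclei. No doublet caller was run, 210 mutant and 131 wt dopamine nuclei also carried glial or vascular markers, and 4 barcodes occurred in both libraries.

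As a whole the receptor subunits of dopamine nuclei stood at close to the same level in the mutant and wt libraries. All 46 together made up 15585 CPM in mutant and 15274 CPM in wt dopamine nuclei, a ratio of 1.02 (1.017 to 1.024). Intervals are exact 95% intervals that cover counting error only, except the approximate interval of the log2 difference given for Glra2. Of the 42 members with at least 50 UMIs over both libraries, 2 reached 1.5-fold above wt once 5 CPM was added to each level as a pseudocount (Grin2c and Gabrg3), against 1.99% of all 16324 genes measured. A further 2 were at least 1.5-fold lower (Glra2 and Glra3), against 1.46% of all genes, and 38 lay between. The median log2 ratio of the 42 was 0.07, beside 0.02 for all genes, and 24 of the 42 were within 1.2-fold. The 4 members left unmeasured had few UMIs: Gabra6, the subunit of cerebellar granule cells, with 10 mutant and 8 wt UMIs, Glra4 with 23 and 13, Grin3b with 30 and 10, and Grm6, the receptor of retinal bipolar cells, with 6 and 0. A CPM of a pooled class does not show whether each nucleus holds less of a transcript or fewer nuclei hold it.

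**Figure D1:**
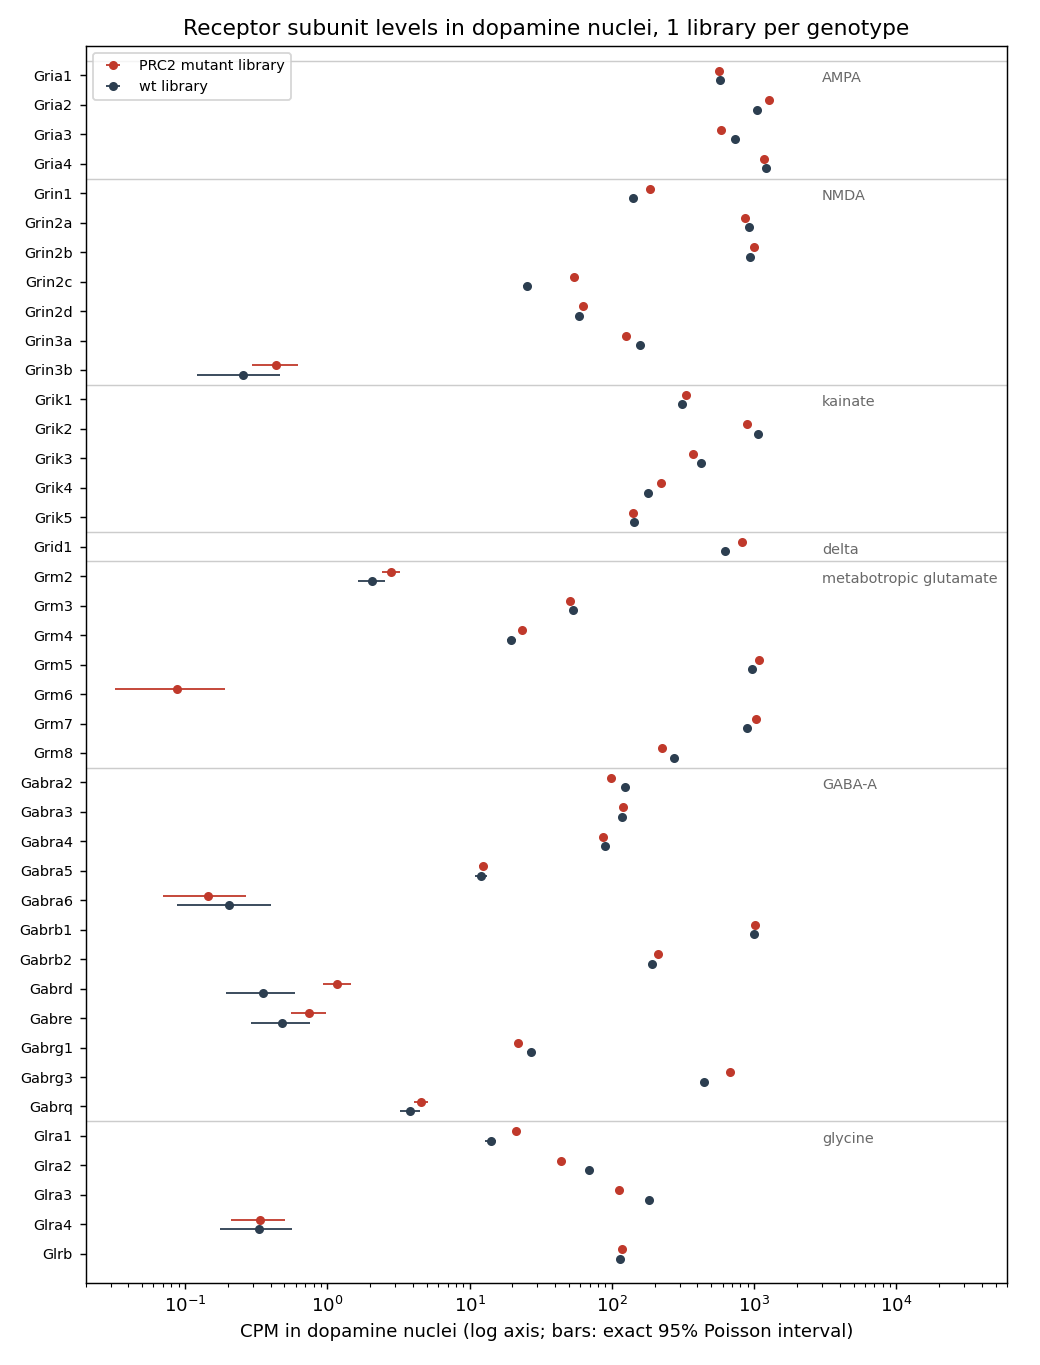
Level of 41 of the 46 members in dopamine nuclei, in CPM on a log axis, with the mutant library (red) above the wt library (dark) and bars for exact 95% Poisson intervals. Most pairs of points nearly coincide, with Grin2c and Gabrg3 to the right and Glra2 and Glra3 to the left in the mutant library; Grm6 had 0 wt UMIs and has no wt point.

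With the pseudocount the genotype ratio was widest for Grin2c, at a log2 ratio of 0.95. Grin2c encodes the GluN2C subunit of NMDA receptors, a subunit of low magnesium block known from cerebellar granule cells and astrocytes. Its level was 53.9 CPM in mutant and 25.5 CPM in wt dopamine nuclei, a ratio of 2.12 (1.97 to 2.27) on 3703 mutant and 1003 wt UMIs. Gabrg3, a gamma subunit of GABA-A receptors, had 674 CPM in mutant and 444 CPM in wt dopamine nuclei, a ratio of 1.52 (1.49 to 1.55), barely past the limit. Glra2 encodes the glycine receptor alpha subunit that predominates in the fetal brain. It had 43.9 CPM in mutant and 69.6 CPM in wt dopamine nuclei, a ratio of 0.631 (0.599 to 0.664). Glra3, another glycine receptor alpha subunit, had 112 CPM in mutant and 183 CPM in wt dopamine nuclei, a ratio of 0.614 (0.595 to 0.634). None of the 4 differed by 2-fold with the pseudocount, a size reached upward by 0.956% and downward by 0.300% of all genes. Just short of the limit lay Glra1, the alpha subunit of adult spinal glycine receptors, at 21.2 CPM in mutant and 14.0 CPM in wt dopamine nuclei, or 1.51-fold higher (1.37 to 1.67) without the pseudocount and a log2 ratio of 0.46 with it.

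The start regions of these 4 genes are shown because PRC2 is known to act mainly at promoters rich in CG pairs. Each run covers 250 bases before to 50 after the annotated start, 5′ to 3′ on the gene's strand, from RefSeq on GRCm38.p6, with each CG in capitals: Grin2c at chr11:115267194-115267493 (minus strand), Gabrg3 at chr7:57387166-57387465 (minus), Glra2 at chrX:165327344-165327643 (minus) and Glra3 at chr8:55940168-55940467 (plus).
Grin2c: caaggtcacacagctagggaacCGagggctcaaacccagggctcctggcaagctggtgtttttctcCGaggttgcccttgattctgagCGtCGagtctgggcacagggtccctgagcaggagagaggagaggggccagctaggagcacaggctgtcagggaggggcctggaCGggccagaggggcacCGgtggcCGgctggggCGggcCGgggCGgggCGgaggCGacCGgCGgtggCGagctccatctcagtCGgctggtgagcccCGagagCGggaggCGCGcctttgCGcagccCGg
Gabrg3: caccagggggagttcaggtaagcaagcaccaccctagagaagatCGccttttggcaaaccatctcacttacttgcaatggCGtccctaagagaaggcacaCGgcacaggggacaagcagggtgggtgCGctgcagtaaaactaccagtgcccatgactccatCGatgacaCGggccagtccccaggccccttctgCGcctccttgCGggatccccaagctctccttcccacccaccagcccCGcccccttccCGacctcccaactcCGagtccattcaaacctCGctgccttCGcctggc
Glra2: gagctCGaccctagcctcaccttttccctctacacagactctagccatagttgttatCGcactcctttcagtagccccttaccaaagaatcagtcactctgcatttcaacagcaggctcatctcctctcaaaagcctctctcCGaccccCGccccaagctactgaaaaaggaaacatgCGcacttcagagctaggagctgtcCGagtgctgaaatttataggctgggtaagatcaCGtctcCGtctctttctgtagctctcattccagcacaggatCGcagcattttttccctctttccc
Glra3: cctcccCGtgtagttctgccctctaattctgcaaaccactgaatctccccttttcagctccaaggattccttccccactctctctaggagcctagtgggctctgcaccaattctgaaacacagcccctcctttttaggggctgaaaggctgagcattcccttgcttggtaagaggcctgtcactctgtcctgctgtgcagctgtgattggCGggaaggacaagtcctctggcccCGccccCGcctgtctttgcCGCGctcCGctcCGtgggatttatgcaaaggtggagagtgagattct
Grin2c had 70.0% G and C and 22 CG pairs in this window of 300 bases, Gabrg3 61.0% and 13, Glra2 50.3% and 9, and Glra3 56.0% and 8. Over the 37 start regions listed for 30 of the 46 members the medians were 59.7% G and C and 12 CG pairs, beside 52.7% and 7 over all 32851 start regions of the table. At least 1 CG, which reads alike on both strands, occurred in 94.6% of the members' regions and in 94.6% of all regions. The higher pair thus held more CG pairs than the lower pair, in 4 regions that were chosen for their ratios. Among listed members between the limits the number ran from 0 for Gabra3 to 50 for Grik3. No binding or histone mark was measured in these libraries.

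Among AMPA receptor genes none of 4 passed the limit. Gria2, whose product keeps calcium out of the AMPA channel, had 1269.5 CPM in mutant and 1053 CPM in wt dopamine nuclei, a ratio of 1.21 (1.19 to 1.22). Gria1 had 571 CPM in mutant and 576 CPM in wt nuclei, and Gria4 1179 and 1211 CPM. Gria3 was the lowest of the family relative to wt, at 586 CPM in mutant and 740 CPM in wt nuclei, a ratio of 0.793 (0.781 to 0.805). Summed, the 4 genes stood at 3606 CPM in mutant and 3580 CPM in wt nuclei, a ratio of 1.01.

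Of 7 NMDA receptor genes 6 were measured and only Grin2c passed the limit. Grin1, the subunit that every NMDA receptor needs, had 186 CPM in mutant and 141 CPM in wt dopamine nuclei, a ratio of 1.32 (1.28 to 1.36). The subunits that set channel kinetics differed less than Grin2c did, with ratios of 0.934 for Grin2a, 1.07 for Grin2b and 1.05 for Grin2d. Grin3a, which lowers calcium entry, had 125 CPM in mutant and 157 CPM in wt nuclei, a ratio of 0.795.

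None of the 5 kainate and 2 delta receptor genes passed the limit. Their ratios ran from 0.839 for Grik2 to 1.245 for Grik4 among kainate receptors, where Grik1 to Grik3 encode the subunits that form channels alone and Grik4 and Grik5 those that need a partner. Delta receptors bind cerebellins across the synapse. Grid1 had 823 CPM in mutant and 628 CPM in wt nuclei, a ratio of 1.31 (1.29 to 1.33).

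None of 7 measured metabotropic receptor genes passed it either. Grm5, a group I receptor that raises calcium through Gq, had a ratio of 1.12. Among group III receptors, which dampen transmitter release through Gi, Grm7 had a ratio of 1.16 and Grm8 one of 0.824 (0.804 to 0.844), at 227 CPM in mutant and 275 CPM in wt nuclei. Ratios in this family ran from 0.824 for Grm8 to 1.37 for Grm2, a gene of 193 mutant and 81 wt UMIs.

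Of 15 GABA-A receptor genes 14 were measured, and all but Gabrg3 lay between the limits. Among beta subunits, which help build the channel, the ratio was 1.00 for Gabrb1 and 1.12 for Gabrb2. Gabrd, the delta subunit of receptors outside synapses, had only 81 mutant and 14 wt UMIs, 1.18 and 0.355 CPM, for a ratio of 3.31 (1.87 to 6.33) that the pseudocount brings to a log2 ratio of 0.21. Summed, the 15 genes stood at 3116 CPM in mutant and 2810 CPM in wt nuclei, a ratio of 1.11.

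Neighbouring GABA-A genes on chromosome 5 had unlike ratios, 0.796 for Gabra2 and 0.816 for Gabrg1, against 0.980 for Gabra4 and 1.00 for Gabrb1. Gabra4 overlaps Gabrb1 on the opposite strand, so how the tags of the pair were split depends on strand handling, which is not stated.

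Glycine receptors were the family whose sum was lowest relative to wt, at 295 CPM in mutant and 381 CPM in wt dopamine nuclei, a ratio of 0.775 (0.759 to 0.791). The beta subunit gene Glrb, which ties receptors to the gephyrin scaffold, had 118 CPM in mutant and 114 CPM in wt nuclei, a ratio of 1.03 (0.992 to 1.07). Within the family the alpha subunits thus went both ways, with Glra1 above 1 and Glra2 and Glra3 below it.

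For Grin2c, Gabrg3, Glra2 and Glra3 the share of nuclei with a tag differed in the same direction as the level after every nucleus was thinned to 2000 UMIs, which left out 27 mutant and 35 wt dopamine nuclei. Grin2c was tagged in 7.72% of mutant (6.77 to 8.77%) and 4.05% of wt dopamine nuclei (3.04 to 5.27%), or 40.5% and 23.6% unthinned. In oligodendrocyte-marked nuclei, which serve as a reading of free RNA, the Grin2c share was 4.35% in the mutant (0.531 to 14.8%) and 2.78% in the wt library (0.0703 to 14.5%), from 2 of 46 and 1 of 36 nuclei of median depth 3643 and 3496 UMIs before thinning. Both intervals hold the share of the dopamine nuclei of their library. However, the 4 astrocyte markers together stood at 319 CPM in mutant and 350 CPM in wt oligodendrocyte-marked nuclei. In dopamine nuclei they stood at 16.6 and 24.7 CPM. For Grin2c, known from astrocytes, the oligodendrocyte-marked share thus cannot tell free RNA from astrocyte RNA. It does not settle whether either thinned Grin2c share is above background. Gabrg3 was tagged in 53.1% of mutant (51.3 to 55.0%) and 41.9% of wt dopamine nuclei (39.2 to 44.6%), against 6.52% of mutant and 5.56% of wt oligodendrocyte-marked nuclei (78.3% and 69.9% of dopamine nuclei unthinned). Glra2 was tagged in 7.72% of mutant (6.77 to 8.77%) and 12.5% of wt dopamine nuclei (10.8 to 14.5%), or 33.0% and 44.7% unthinned, against 0 of 46 mutant oligodendrocyte-marked nuclei, which allows up to 6.52%, and 2.78% of wt ones. Glra3 was tagged in 16.4% of mutant (15.0 to 17.8%) and 23.7% of wt dopamine nuclei (21.4 to 26.1%), or 57.7% and 73.1% unthinned, against 0 of 46 mutant and 2.78% of wt oligodendrocyte-marked nuclei.

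Astrocytes are a known source of Grin2c, and its level in astrocyte-marked nuclei was 196 CPM in the mutant (131 to 281) and 110 CPM in the wt library (71.2 to 162), from 29 and 25 UMIs. The 4 astrocyte markers together stood at 16.6 CPM in mutant and 24.7 CPM in wt dopamine nuclei, and none of the 4 was at 0 in either library. The part of astrocyte RNA in the Grin2c values was not tested. The 3 markers of GABA neurons together stood at 179 CPM in mutant and 34.0 CPM in wt dopamine nuclei, and the 3 of glutamate neurons at 33.1 and 25.6 CPM, with none at 0 in either library. Their part in the members' values was not tested. Leaving out nuclei with glial or vascular markers kept Grin2c and Gabrg3 as the higher and Glra2 and Glra3 as the lower members.

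In other nuclei, which lie below the limit on the 4 dopamine genes, 0 of 41 measured members reached 1.5-fold above wt, against 1.00% of 13491 genes, and 2 were lower, against 1.94%. The lower ones were Gabra2, an alpha subunit of forebrain and axon initial segment synapses, at 247 CPM in mutant and 397 CPM in wt nuclei (ratio 0.621), and Gabrg1, its neighbour on chromosome 5, at 67.5 and 113 CPM (ratio 0.596). The same 2 genes were the lower ones when only neuron-like nuclei were kept, those with at least 30 UMIs of 4 neuronal markers per 10000 and under 5 of any glial or vascular list (856 mutant and 282 wt), against 0.826% of genes, with 0 higher against 1.19%. Neither gene was past the limit when each nucleus was weighted equally or after thinning to 2000 UMIs. In the mutant library 45.9% of other nuclei of at least 10000 UMIs carried a tag of a Hox gene, Pax2, Pax3 or Pax6, against 11.4% in the wt library. The part of such nuclei in these values was not tested.

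Several members had ratios on opposite sides of 1 in the 2 classes. Without the pseudocount, Glra2 alone was at least 1.2-fold from 1 in both directions. Its ratio was 0.631 in dopamine and 1.24 in other nuclei (82.1 CPM in mutant, 66.1 CPM in wt). In other neuron-like nuclei the Glra2 ratio was 1.16, short of 1.2-fold. For Grin2c the ratio was 2.12 in dopamine and 0.928 in other nuclei, where 227 mutant and 90 wt UMIs give 11.7 and 12.6 CPM. Gabrg3 had a ratio of 1.13 in other nuclei (948 CPM in mutant and 836 CPM in wt), and Glra3 one of 0.863 (165 and 191 CPM), on the same side of 1 as in dopamine nuclei. With 1 library per genotype none of these differences between classes could be tested.

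**Figure D2:**
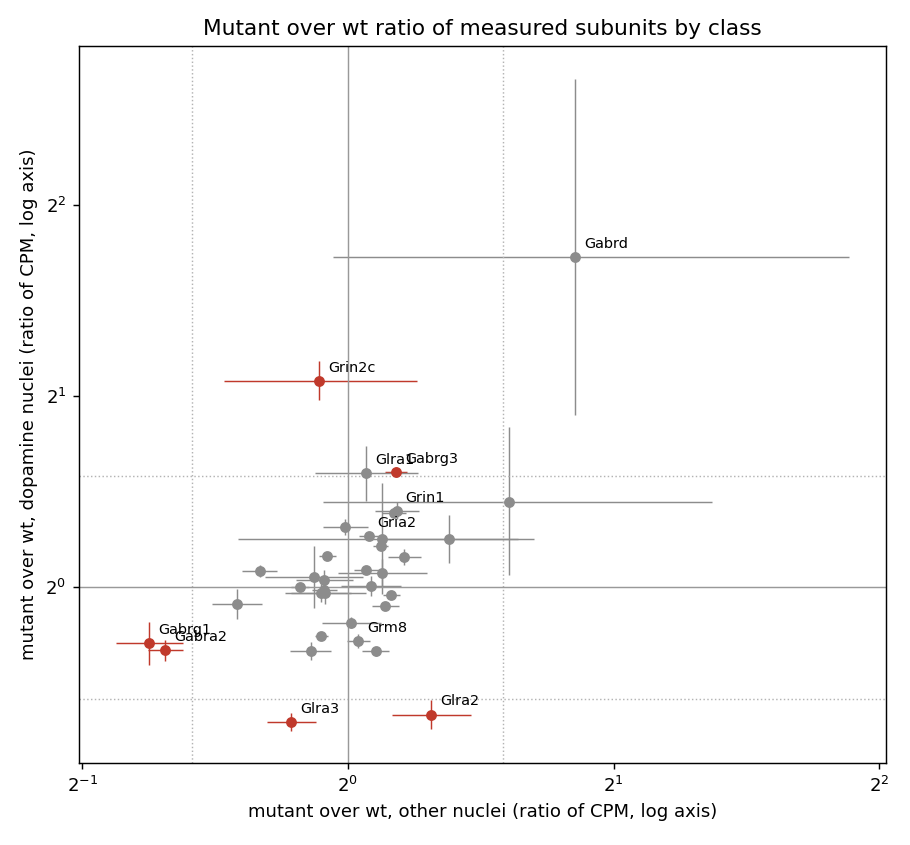
Ratio of mutant to wt CPM for 36 measured members, in other nuclei (x axis) and dopamine nuclei (y axis), both on log axes, with exact 95% intervals for counting error. Red points passed 1.5-fold (dotted lines) with the pseudocount in either class, among them Grin2c at 2.12 and Glra2 at 0.631 on the y axis; Gabrd, at 3.31, rests on 81 mutant and 14 wt UMIs.

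Set beside other nuclei of their own library, dopamine nuclei were low in many GABA-A, glycine and kainate or delta subunits and high in few. In the mutant library, of 43 measured members 2 were at least 1.5-fold higher in dopamine nuclei (Grin2c and Grik3), against 2.93% of genes, and 13 were lower, against 4.93%. In the wt library, of 40 measured members 3 were higher (Grin2a, Grin2c and Grik3), against 3.40%, and 15 were lower, against 8.20%. Grik3, a kainate subunit of low glutamate affinity, had 371 CPM in dopamine and 128 CPM in other nuclei of the mutant library, and 421 and 127 CPM in those of the wt library. Grm8 and Grik2 were among the lowest, with ratios of 0.262 and 0.350 in the mutant and 0.327 and 0.390 in the wt library.

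Gabrg3 and Glra2 differed between the libraries in this comparison. Gabrg3 had a dopamine over other ratio of 0.711 in the mutant and 0.530 in the wt library. Glra2 had one of 0.534 in the mutant (43.9 and 82.1 CPM) and 1.05 in the wt library (69.6 and 66.1 CPM). Restricting the other nuclei to neuron-like ones left 2 higher and 14 lower members in the mutant library (3.59% and 4.12% of genes) and 2 higher and 17 lower in the wt library (4.17% and 5.48%).

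The level of some members depended strongly on the class of nucleus. Marked classes are nuclei past a limit on the summed markers of that type (20 per 10000 for oligodendrocytes, 10 for astrocytes, 2 for GABA or glutamate neurons). Grm3, a group II receptor of glia, was at 1268 CPM in mutant and 1455 CPM in wt oligodendrocyte-marked nuclei, against 50.6 CPM in mutant and 53.7 CPM in wt dopamine nuclei. Glra1, Glra2 and Glra3 had 0 or 1 UMI each per library in the same nuclei. Glra1 was at 56.4 CPM in mutant and 66.0 CPM in wt GABA-marked neurons, above its 21.2 and 14.0 CPM in dopamine nuclei. Gabra2 was at 232 CPM in mutant and 478 CPM in wt glutamate-marked neurons, groups of 149 and 44 nuclei.

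**Figure D3:**
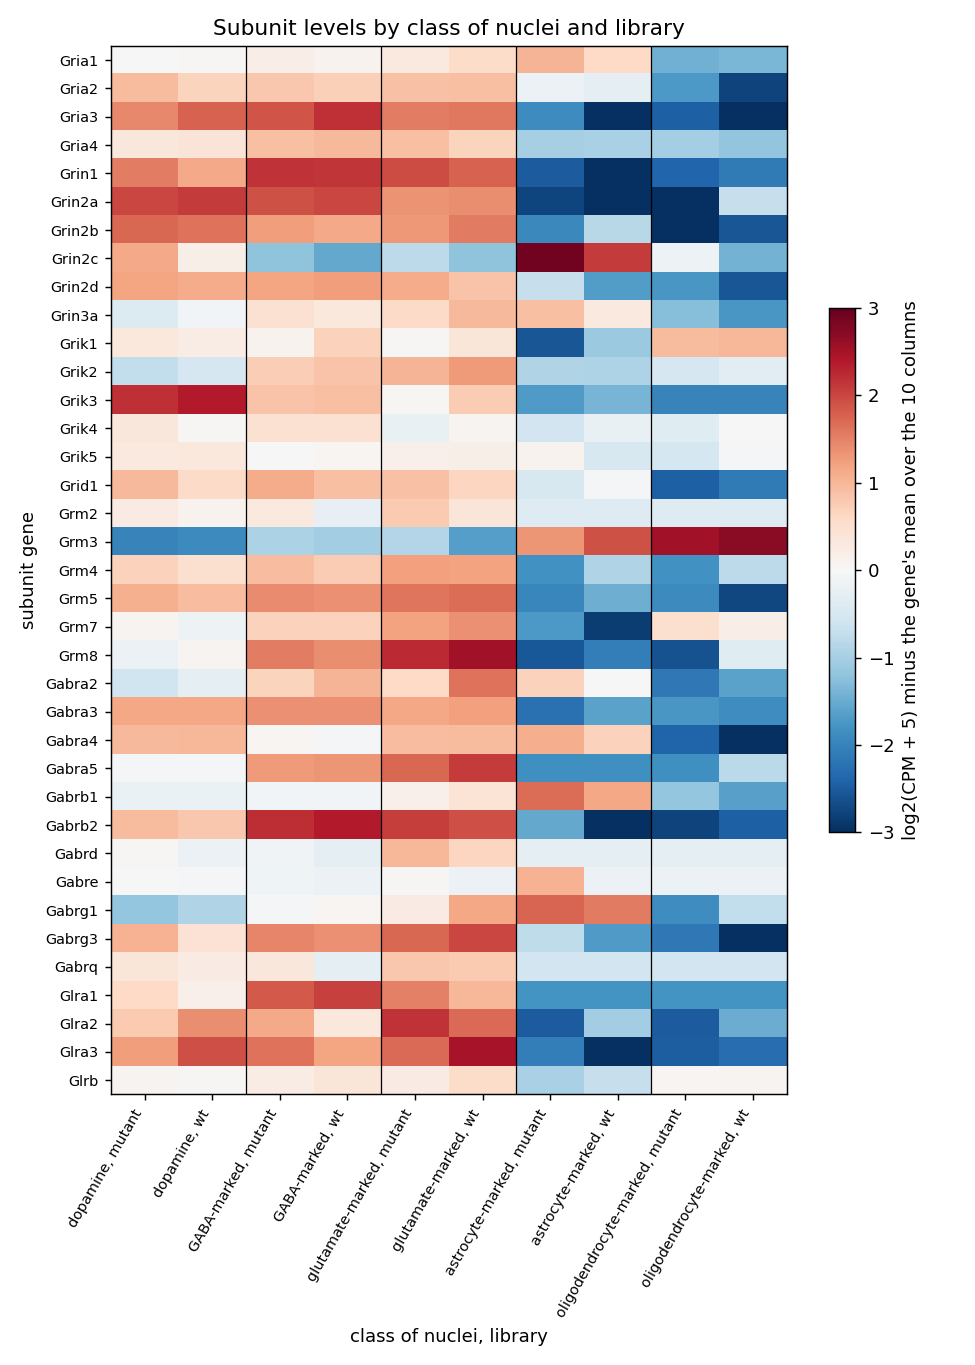
Heat map of 37 of the 42 measured members (rows, by family) in 5 classes of nuclei, each as mutant then wt column; colour gives log2(CPM + 5) minus the gene's mean over the 10 columns. Grin2c and Grm3 are highest in astrocyte-marked and oligodendrocyte-marked nuclei, Grik3 in dopamine nuclei, and the columns of the 2 libraries resemble each other within each class.

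The 4 genes that define dopamine nuclei are themselves lower in the mutant library, so the nuclei of the libraries are spread unlike along that scale. Whether mutant nuclei hold less of these genes or the kinds of nuclei differ was not tested. A fixed range may thus set unlike kinds of nuclei side by side. With this limit, members were also read within fixed ranges of the 4 genes. From 5 to 10 UMIs per 10000 (775 mutant and 143 wt nuclei) Grin2c had 41.4 CPM in mutant and 2.99 CPM in wt nuclei, a ratio of 13.9 (6.996 to 32.2) on 8 wt UMIs. From 10 to 20 (1589 and 317 nuclei) it had 62.4 and 14.0 CPM, a ratio of 4.46 (3.74 to 5.36). From 20 upward (511 and 860 nuclei) it had 41.2 and 31.5 CPM, a ratio of 1.31 (1.15 to 1.48). The mutant values of Grin2c thus showed no order along the dopamine genes, while its wt values were higher where those genes were higher.

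Glra2 took the reverse course in the wt library. It had 56.7 CPM in mutant and 180.2 CPM in wt nuclei from 5 to 10, 38.2 and 111 CPM from 10 to 20, and 41.6 and 44.9 CPM from 20 upward, with ratios of 0.315, 0.345 and 0.926. Grm8 did the same, with ratios of 0.407, 0.387 and 0.918. Glra3 stayed lower in the mutant library throughout, at ratios of 0.626, 0.505 and 0.534. Gabrg3 had ratios of 1.23, 1.15 and 1.94, so that it passed 1.5-fold only from 20 upward. Glra1 had ratios of 0.766, 0.901 and 2.13. Members at least 1.5-fold higher and lower numbered 1 and 10 from 5 to 10 (background 4.41% and 5.33%), 1 and 10 from 10 to 20 (2.69% and 3.98%), and 3 and 2 from 20 upward (3.23% and 2.44%).

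Ranking each library on its own gave tertiles of about equal numbers of nuclei, 959, 958 and 958 mutant and 440 wt in each. Grin2c had ratios of 3.88, 3.01 and 1.30 from the lowest to the highest tertile, Glra3 of 0.648, 0.541 and 0.630, and Gabrg3 of 1.18, 1.65 and 1.81. Glra2 turned over, at 0.432, 0.529 and 1.89, and so did Grm8, at 0.608, 0.745 and 1.88. Along the tertiles Glra2 stood at 55.8, 36.9 and 37.7 CPM in the mutant library, against 129, 69.8 and 19.96 CPM in the wt library. Grm8 stood at 349, 169.7 and 143 CPM in the mutant library, against 574, 227.8 and 76.2 CPM in the wt library. Between the highest and the lowest tertile, 0 members were at least 1.5-fold higher and 8 lower in the mutant library (0.170% and 1.46% of genes), and 1 was higher and 15 lower in the wt library (2.87% and 7.91%). Of the 40 members measured in both, 33 (82.5%) had the smaller step in the mutant library, beside 73.3% of 12800 genes.

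**Figure D4:**
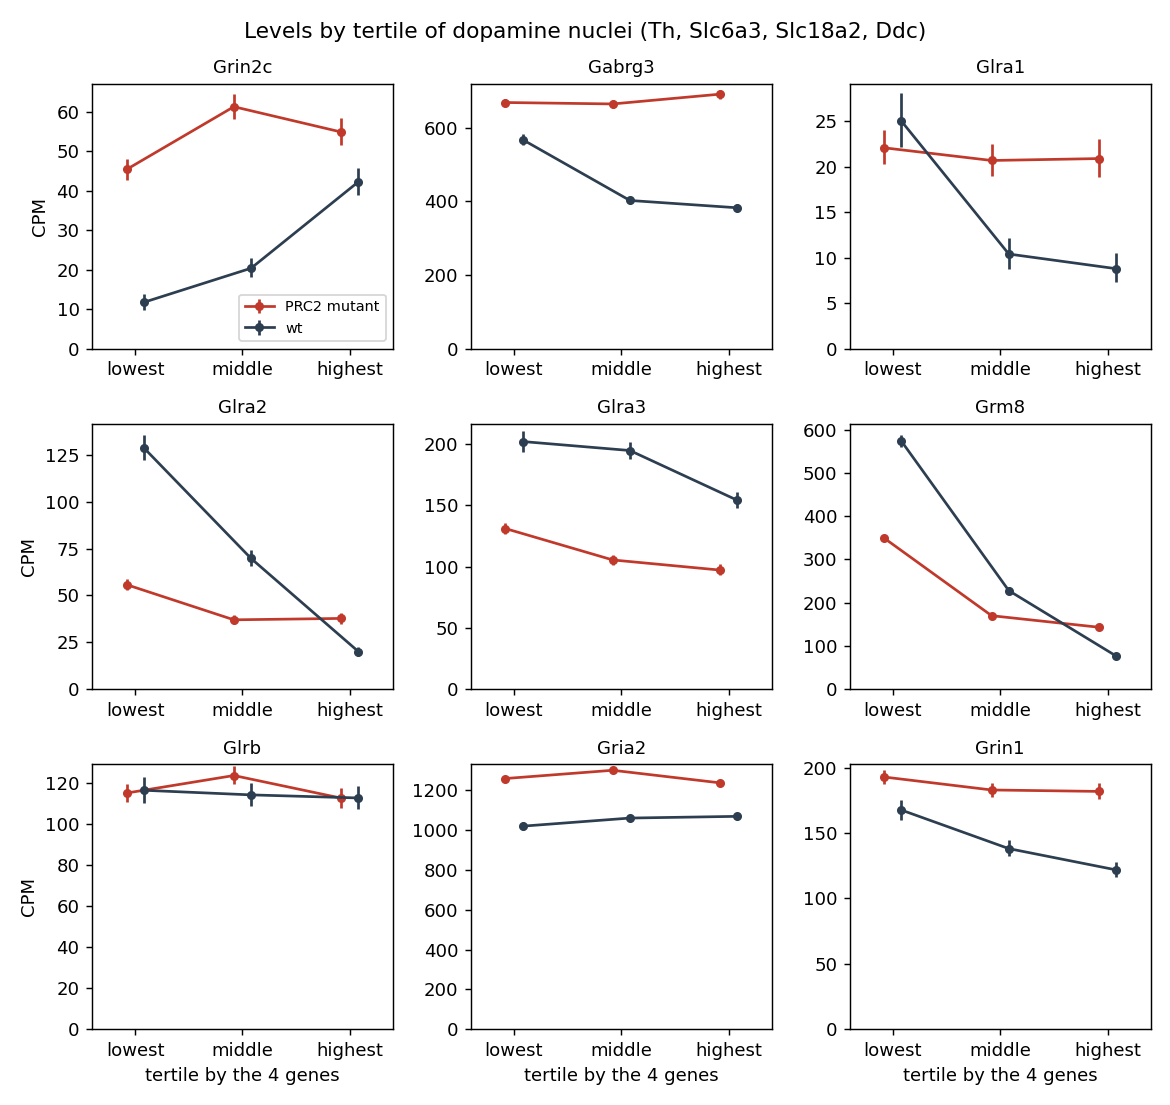
CPM of 9 members in tertiles of each library's dopamine nuclei, ordered by the 4 dopamine genes, with the mutant library in red and the wt library in dark and bars for exact 95% Poisson intervals. For Grin2c, Glra2 and Grm8 the lines of the mutant library are flatter than those of the wt library, and Glra3 is lower in the mutant library in each tertile.

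Members also differed within the mutant library, between nuclei with and without tags of Hox genes, Pax2, Pax3 or Pax6, which encode transcription factors of embryonic patterning. Among dopamine nuclei of at least 10000 UMIs, 2090 mutant nuclei had 1 or more tags of these 34 genes and 264 had none, whereas 44 wt nuclei had a tag and 1113 had none. Grin2c had 58.7 CPM in tagged and 2.38 CPM in untagged mutant nuclei, a ratio of 24.6 (13.7 to 49.4) on 3551 and 11 UMIs, beside 25.5 CPM in untagged wt nuclei. Glra2 had 39.0 CPM in tagged and 103 CPM in untagged mutant nuclei, beside 70.2 CPM in untagged wt nuclei. Grm8 had 196, 557 and 276 CPM in the same 3 groups. Tagged over untagged mutant nuclei, 4 of 41 measured members were higher (Grin2c, Grik1 and Grm4 among them; background 3.12%) and 11 lower (2.87%), Glra2, Gabra2 and Gabrg1 among them.

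The untagged mutant nuclei were not like untagged wt nuclei. Of 40 measured members 11 were at least 1.5-fold higher in untagged mutant than in untagged wt nuclei (3.61% of genes) and 1 was lower, Grin2c (3.19%). Those 11 included Gabrg3, at 785 CPM in mutant and 438 CPM in wt nuclei. Median depth was 23492.5 UMIs in tagged mutant, 14885.5 UMIs in untagged mutant and 26298 UMIs in untagged wt nuclei, and 12.5%, 4.92% and 30.5% of these nuclei carried Anxa1 or Ndnf. The part of depth and of these markers was not tested. Tagged mutant over untagged wt nuclei gave the 4 genes of the pooled comparison, Grin2c and Gabrg3 higher (2.35% of genes) and Glra2 and Glra3 lower (1.65%). These groups held 60527613 of the 68742978 mutant and 36262347 of the 39383984 wt UMIs of the pooled dopamine nuclei. The comparison is therefore not independent of the pooled one.

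**Figure D5:**
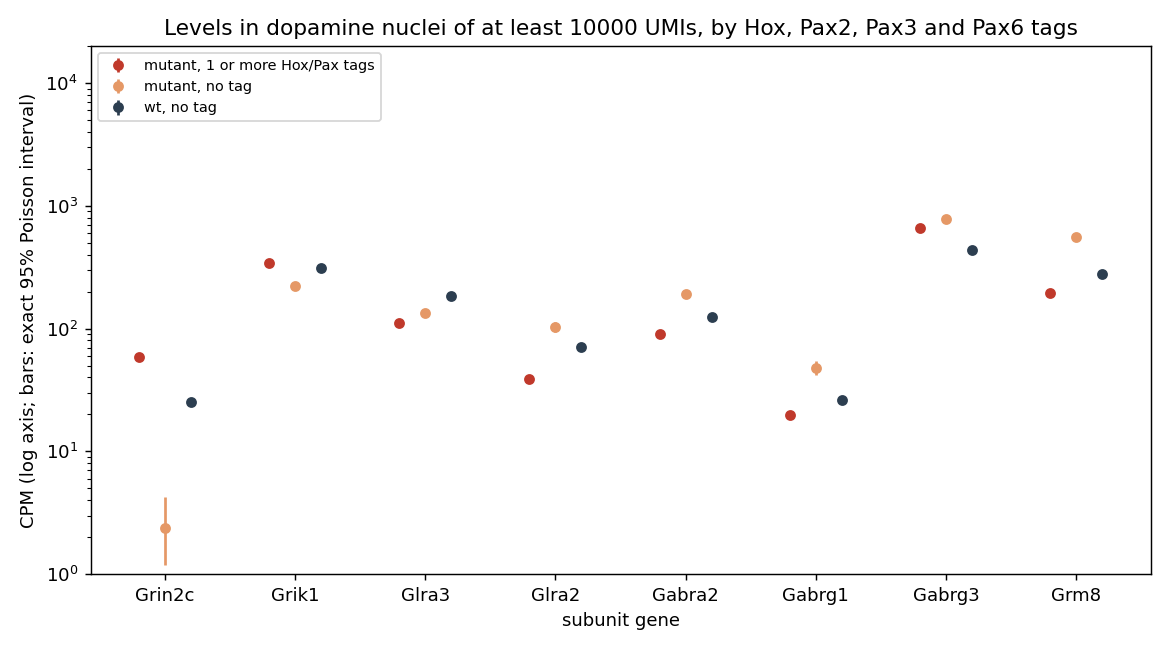
CPM (log axis) of 8 members in tagged mutant, untagged mutant and untagged wt dopamine nuclei of at least 10000 UMIs, where a tag is 1 or more UMIs of Hox genes, Pax2, Pax3 or Pax6. Grin2c is at 58.7 CPM in tagged and 2.38 CPM in untagged mutant nuclei, while Glra2 and Grm8 are higher in untagged ones.

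Anxa1 and Ndnf mark a ventral group of substantia nigra neurons, and nuclei with at least 1 UMI of the pair per 10000 made up 11.1% of mutant (319) and 28.6% of wt (378) dopamine nuclei. In the mutant library Grin2c was higher in marked than in unmarked nuclei, at 105 and 47.3 CPM. It was 1 of 2 higher members, while 11 were lower (0.492% of genes higher and 1.80% lower). Gabrg3 had 251 CPM in marked and 729 CPM in unmarked mutant nuclei, and Glra2 had 15.6 and 47.5 CPM. The wt library also had 2 higher members, Grin2c among them, and 11 lower ones (1.52% and 3.48% of genes). There Grin2c had 51.6 CPM in marked and 11.9 CPM in unmarked nuclei, Gabrg3 had 164 and 589 CPM, and Glra2 had 24.9 and 92.9 CPM. Gabrg3 was thus low in the marked nuclei, which made up a smaller share of mutant than of wt dopamine nuclei.

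Within unmarked nuclei Grin2c had 47.3 CPM in mutant and 11.9 CPM in wt nuclei, a ratio of 3.99 (3.54 to 4.50), the only higher member (1.99% of genes), and 4 were lower, Grm8, Glra2 and Glra3 among them (1.58%). Gabrg3 had a ratio of 1.24 there (729 CPM in mutant and 589 CPM in wt). Within marked nuclei Grin2c, Gabrg3 and Glra1 were higher (3.79% of genes) and Gria3, Grin3a and Glra3 lower (3.04%). Grin2c had 105 CPM in mutant and 51.6 CPM in wt marked nuclei, a ratio of 2.03, and Glra3 had 84.8 and 153 CPM, a ratio of 0.554. Among the groups, ranges and tertiles of dopamine nuclei given, the mutant over wt ratio of Gabrg3 was thus above 1 and that of Glra3 below 1 in each, with untagged nuclei included (0.723 for Glra3). Grin2c was above 1 in each except untagged nuclei. Glra1 and Glra2 lay on either side of 1 depending on the group, and Grin2c and Gabrg3 both fell short of 1.5-fold in some.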

How the data were processed

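Per the labels' protocols, nuclei were isolated from midbrain, sorted by FACS and made into 10x Single Cell 3' v3 libraries. Cell Ranger 3.1.0 and the build mm10 appear in the submitters' processing notes. The deposited values are raw UMI counts, not normalised, for each gene in each nucleus, with lanes merged, and genotype came from the start of each column name. Whether intronic tags were counted is not stated. Tags near the 3' end do not allow levels of different genes to be compared.

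Counts were summed per class and library and scaled to CPM with Python 3.11.15, numpy 2.4.6, scipy 1.17.1, pandas 2.3.3 and matplotlib 3.10.9. Intervals of ratios are exact binomial, those of levels exact Poisson, those of shares exact binomial (Clopper-Pearson), all 95% and for counting error only. The interval of the Glra2 log2 difference is an approximate (Wald) 95% interval, also for counting error only. Members with at least 50 UMIs over both sums were counted at 1.5-fold with a pseudocount of 5 CPM, and ratios of single genes have none. No test was run, because nuclei are not replicates. Any member could be named, with full values for those past 1.5-fold in dopamine nuclei and for common subunits such as Gria2, Grin1 and Glrb; the others given were chosen after their values were seen. Some members count in the totals but are not reported here by name. The members and gene lists were chosen with earlier results of these data known. Limits for neuron-like and marked nuclei and the Anxa1 or Ndnf split were set after the data were seen. The 46 members were placed by symbol in the mm10 annotation, and start regions came from RefSeq. The steps were tested on simulated data. Alternatives changed the pseudocount, scaling, fold, count minimum, weighting, definition of dopamine nuclei, depth, and nuclei with glial markers.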

Additional observations from a re-analysis of the deposited data

Results flagged for a closer look

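Glra2, the fetal-type glycine receptor subunit, was singled out because its mutant over wt ratio was at least 1.2-fold below 1 in one class of nuclei and at least 1.2-fold above 1 in the other, with counting intervals that leave out 1; other members had ratios on opposite sides of 1 by less. It was 0.631 in dopamine nuclei and 1.24 in other nuclei, a log2 difference of -0.98 (-1.14 to -0.81, an approximate interval for counting error only). The difference was not tested, since there is 1 library per genotype. With other nuclei restricted to neuron-like ones the ratio there was 1.16, short of the 1.2-fold limit. Within dopamine nuclei the ratio was 0.432 in the lowest and 1.89 in the highest tertile of the 4 dopamine genes.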

How the results depend on the processing

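No paired analysis was possible because each genotype is 1 library and the lanes, which carry the shared numbers, are not kept apart in the table; for the same reason no library could be left out. In dopamine nuclei 2 members were higher and 2 lower. The higher count was 1 with median-of-ratios scaling, with dopamine nuclei taken from 2 per 10000, with bins of the 4 genes weighted equally, with tertiles weighted equally and without Anxa1 or Ndnf nuclei, and 0 at 2-fold. The gene lost was Gabrg3 in each of the first 5. The lower count was 1 from 2 per 10000 and by Ddc alone, 9 with bins weighted equally, 4 without Anxa1 or Ndnf nuclei and 0 at 2-fold. In other nuclei the higher count of 0 became 1 with a pseudocount of 1 CPM and with dopamine nuclei from 10 or from 20 per 10000, and 2 after thinning. The lower count of 2 there became 1 with nuclei weighted equally (Grm3, so that Gabra2 and Gabrg1 both lost their call) and 1 from 2 per 10000 (Gabra2), 9 from 20 per 10000, and 0 after thinning and at 2-fold. For dopamine over other nuclei, the mutant count of 2 higher became 4 with nuclei weighted equally and 0 from 20 per 10000, and its 13 lower became 8 from 20 per 10000. The wt count of 3 higher became 1 at 2-fold. The cause was not tested where the construction does not show it. The tertiles and the Anxa1 or Ndnf nuclei were alternatives chosen after seeing the data. Over 14 alternatives each, the ratio ran from 1.31 to 3.99 for Grin2c, 1.24 to 1.94 for Gabrg3, 0.406 to 0.926 for Glra2 and 0.534 to 0.650 for Glra3, and none changed side of 1. Depth limits Gabrd, Gabre and the 4 unmeasured members most.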

Other observations

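Proteins that travel with the receptors were described from a list of 47 other genes: auxiliary subunits, scaffolds, cerebellins, GABA-B receptors and chloride transporters. In dopamine nuclei 43 were measured, with 1 that reached 1.5-fold above wt (1.99% of all genes) and 1 lower (1.46%), and a median log2 ratio of 0.03. Cacng5, an auxiliary subunit of AMPA receptors, had 9.89 CPM in mutant and 3.68 CPM in wt dopamine nuclei, a ratio of 2.69 (2.24 to 3.24). Grip2, a scaffold that binds AMPA receptor tails, had 142 CPM in mutant and 284 CPM in wt dopamine nuclei, a ratio of 0.499 (0.486 to 0.513). Within fixed ranges of the 4 dopamine genes the Grip2 ratio was 1.11 (0.980 to 1.26) from 5 to 10 UMIs per 10000, 0.736 from 10 to 20 and 0.551 from 20 upward, so that it was below 1 in the upper ranges only. Cacng5 had ratios of 3.44, 1.82 and 2.04 in the same ranges. Gsg1l, another AMPA auxiliary subunit, had ratios of 2.4997, 2.29 and 1.12, and Homer2, a scaffold of metabotropic glutamate receptors, of 2.16, 2.34 and 1.13. In these ranges 4, 2 and 1 of the other receptor genes reached 1.5-fold above wt (4.41%, 2.69% and 3.23% of all genes) and 2, 3 and 1 were lower (5.33%, 3.98% and 2.44%). The 12 AMPA auxiliary genes together stood at 1408 CPM in mutant and 1234 CPM in wt nuclei, a ratio of 1.14. The 8 genes of inhibitory scaffold and assembly stood at 1567 CPM in mutant and 1492 CPM in wt nuclei, a ratio of 1.05, and the 2 chloride transporter genes at 180.3 and 176 CPM, a ratio of 1.03.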
